A study of Homo sapiens with 15 samples.

Results

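Transcript levels of 10 genes that switch cell cycle transcription on and off were followed in the human fibrosarcoma line HT-1080. These were the transcription factor genes E2F1, E2F2, E2F7 and E2F8, the RB family genes RB1, RBL1 and RBL2, and MYBL2, FOXM1 and LIN9. They were taken by symbol from a table of 60670 genes, each matched 1 row, and all 10 passed the filter on low counts. The study asked how senescent cells respond to GNF-7, a kinase inhibitor given at 1 uM, and the 15 libraries fell into 5 groups of 3. Cycling cells received the vehicle DMSO for 6 h. The other 4 groups were senescent cells that had carried, for 6 days, expression of a TRF2 mutant that acts as a dominant negative and uncaps telomeres, and that then received DMSO or GNF-7 for 6 h or 24 h. No cycling cells received GNF-7, so every effect of the compound is an effect in senescent cells. All groups came from 1 cell line, which is known to carry a deletion of CDKN2A, and this gene had 0 counts in each of the 15 libraries, which allows up to 3 counts in a library. The labels number the libraries of a group as biological replicates but do not say that they came from separate cultures, so p-values measure only the spread between these libraries.

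The RB family, also called pocket proteins, binds E2F factors and holds their target genes off until cyclin-dependent kinases phosphorylate it. E2F1 and E2F2 activate genes of the G1/S transition, while E2F7 and E2F8 are atypical members that bind DNA without a DP partner and repress those genes. The MuvB complex, with LIN9 as a core subunit, represses cell cycle genes together with RBL1 or RBL2 and a repressor E2F (the DREAM complex), and activates genes of G2 and mitosis together with MYBL2 and FOXM1. Senescent cells are known for low E2F output, and E2F7 is known as a target of p53.

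Library totals ranged from 25991007 to 32323393 counts, and levels are given as CPM, counts scaled to library size after TMM normalisation. Fold changes are from 1 edgeR fit of all 15 libraries, with their standard error (SE), and a gene was called, written as rose or fell, at an adjusted p under 0.05 over all genes tested. The senescence comparison sets the senescent vehicle libraries of 6 h against the cycling ones, each GNF-7 effect is against vehicle of the same time, and alternatives are other settings of scaling, filter, tool or libraries. Gene positions are those of GENCODE 29 on GRCh38. The mesenchymal markers VIM, FN1, CD44, LOX and SPARC were at 143 to 4276 CPM in every library, and the 9 epithelial, leukocyte and endothelial markers were at most 2.97 CPM. TERF2, the gene of TRF2, was at 55.7 to 62.4 CPM in the cycling libraries, at 278 to 293 CPM in senescent cells with vehicle for 6 h and at 212 to 226 CPM with vehicle for 24 h; mutant and endogenous transcript are summed in these counts. With GNF-7 it was at 212 to 227 CPM at 6 h and 128 to 138 CPM at 24 h, wholly below its vehicle at both times. The part of this lower TERF2 level in the GNF-7 results was not tested. The share of counts on mitochondrial genes was 3.75 to 5.01% in cycling cells, 11.2 to 18.7% in senescent cells with vehicle and 13.2 to 24.1% with GNF-7. With library scaling computed without the mitochondrial genes, every member kept its direction in every comparison, and RBL2 lost its call in senescence (-0.10, adjusted p = 0.0715) and in the difference between the times, while the E2F2 difference between the times was then called (adjusted p = 0.0491). In bulk libraries, fewer cells in the cycle and less RNA per cell cannot be told apart.

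**Figure D1:**
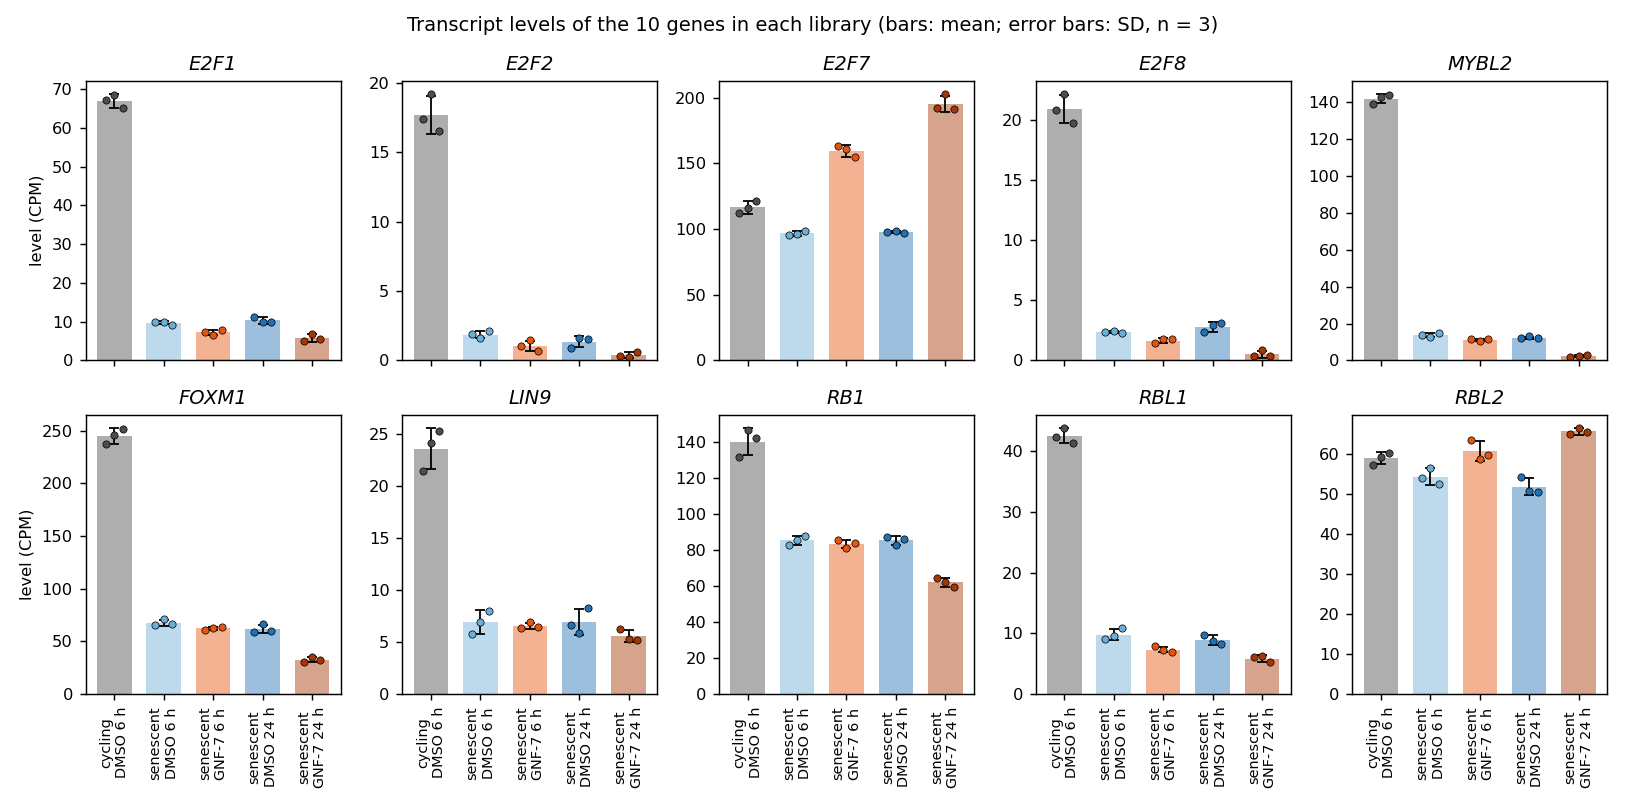
Level of each of the 10 genes in CPM (vertical axes start at 0 and differ between panels) in the 5 groups; points are libraries, bars the mean and error bars the SD over 3 libraries. Cycling cells are highest for 8 genes, while E2F7 and RBL2 are highest in senescent cells with GNF-7 for 24 h, at means of 195 and 65.6 CPM.

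The activator genes E2F1 and E2F2 were far lower in senescent than in cycling cells, and GNF-7 lowered both further. E2F1 (ENSG00000101412, chr20:33675683-33686404, minus strand) was at 67.3, 68.4 and 65.0 CPM in the cycling libraries, and at 9.90, 9.85 and 9.23 CPM in senescent cells with vehicle for 6 h. After 24 h in vehicle it was at 11.3, 9.84 and 9.83 CPM. With GNF-7 it was at 7.36, 6.58 and 7.76 CPM at 6 h, and at 4.98, 6.92 and 5.48 CPM at 24 h. Every cycling library was above every senescent one, and at each time the GNF-7 libraries lay below their vehicle libraries with no overlap. The log2 fold change of E2F1 was -2.79 (SE 0.08, edgeR adjusted p = 1.31e-38) in senescence, -0.42 (SE 0.10, adjusted p = 0.000408) with GNF-7 at 6 h and -0.84 (SE 0.10, adjusted p = 1.29e-10) at 24 h. E2F2 (ENSG00000007968, chr1:23506430-23531220, minus strand) had the lowest mean level of the 10 genes in every group. It was at 17.4, 19.2 and 16.5 CPM in cycling cells, 1.89, 1.58 and 2.08 CPM in senescent cells with vehicle at 6 h, and 0.925, 1.59 and 1.55 CPM at 24 h. GNF-7 left 1.04, 1.44 and 0.700 CPM at 6 h and 0.301, 0.227 and 0.631 CPM at 24 h, the latter from only 9, 7 and 19 counts. The GNF-7 libraries again lay wholly below their vehicle, and all senescent libraries below the cycling ones. E2F2 changed by -3.26 (SE 0.18, adjusted p = 1.37e-24) in senescence, by -0.81 (SE 0.24, adjusted p = 0.00452) with GNF-7 at 6 h and by -1.79 (SE 0.31, adjusted p = 1.25e-06) at 24 h, on the log2 scale. Its 6 h change was -0.58 (adjusted p = 0.068) without the third GNF-7 library of that time.

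The start regions of E2F1, E2F2, RBL1 and MYBL2, which fell in all 3 of these comparisons, are shown beside that of E2F7, which rose with GNF-7; E2F8, which also fell in all 3, is not shown. Each is the 120 bases before the RefSeq transcription start (GRCh38.p14, MYBL2 on the plus strand and the others on the minus strand, printed 5′ to 3′ along the gene): chr20:33686386-33686505 for E2F1, chr1:23531234-23531353 for E2F2, chr20:37095998-37096117 for RBL1, chr20:43666994-43667113 for MYBL2 and chr12:77065570-77065689 for E2F7. Capitals mark the letters TTTCCCGC, TTTCGCGC, TTTGCCGC or TTTGGCGC on either strand, 4 forms of the E2F binding motif.
E2F1: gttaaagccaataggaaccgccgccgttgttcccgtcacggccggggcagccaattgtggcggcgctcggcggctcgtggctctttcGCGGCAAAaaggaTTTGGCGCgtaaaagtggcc
E2F2: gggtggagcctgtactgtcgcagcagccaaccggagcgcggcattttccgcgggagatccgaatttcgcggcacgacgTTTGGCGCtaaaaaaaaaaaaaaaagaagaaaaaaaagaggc
RBL1: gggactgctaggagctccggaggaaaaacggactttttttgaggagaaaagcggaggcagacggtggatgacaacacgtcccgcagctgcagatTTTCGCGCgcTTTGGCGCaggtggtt
MYBL2: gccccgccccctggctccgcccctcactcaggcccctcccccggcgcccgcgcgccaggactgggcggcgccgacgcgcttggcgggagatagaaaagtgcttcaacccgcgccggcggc
E2F7: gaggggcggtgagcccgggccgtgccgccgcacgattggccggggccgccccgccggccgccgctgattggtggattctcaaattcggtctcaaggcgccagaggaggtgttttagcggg
E2F1 held 2 such motifs, starting at -33 and -20 from the start, RBL1 held 2, at -26 and -16, and E2F2 held 1, at -42. The MYBL2 window held none of these 4 exact forms, and other forms of the E2F motif were not searched. In windows from 250 bases before to 50 after each start, 3.31% of 35116 RefSeq windows held at least 1 of these motifs and 0.145% held at least 2. The E2F7 window also held none of the 4 forms, and it held the letters CCAAT, on either strand, 4 times, starting at -229, -167, -86 and -54. CCAAT also stood 3 times in the E2F1 window, at -179, -113 and -70, and in 1 RBL2 window, at -30. At least 1 CCAAT stood in 34.6% of all windows and at least 4 in 0.991%. Of the 10 genes, 8 had a window, and 5 of these (E2F7, MYBL2, RB1, RBL2 and LIN9) held none of the 4 forms. The RB1 window lies at an internal start, 172724 bases from the gene's first base in GENCODE 29. These matches describe the letters in the windows and are not shown to be binding sites. Their relation to the changes in level was not tested.

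The atypical repressors E2F7 and E2F8 went opposite ways under GNF-7. E2F7 (ENSG00000165891, chr12:77021247-77065580, minus strand) was at 112, 116 and 122 CPM in cycling cells and at 95.3, 95.9 and 98.9 CPM in senescent cells with vehicle at 6 h. Vehicle at 24 h gave 98.0, 98.8 and 96.9 CPM. GNF-7 gave 163, 161 and 155 CPM at 6 h and 193, 203 and 191 CPM at 24 h. E2F7 was a little lower in senescent than in cycling cells, and with GNF-7 it stood above both, with no overlap. Its log2 fold change was -0.27 (SE 0.04, edgeR adjusted p = 3.61e-08) in senescence (-0.14 by total counts and -0.12 with a filter at a mean of 5 CPM, both called), 0.72 (SE 0.04, adjusted p = 1.63e-23) with GNF-7 at 6 h and 1.00 (SE 0.04, adjusted p = 4.20e-31) at 24 h. E2F8 (ENSG00000129173, chr11:19224063-19241620, minus strand) was at 20.9, 22.2 and 19.8 CPM in cycling cells, 2.35, 2.43 and 2.29 CPM in senescent cells with vehicle at 6 h, and 2.33, 2.96 and 3.10 CPM at 24 h. GNF-7 gave 1.43, 1.75 and 1.78 CPM at 6 h and 0.334, 0.844 and 0.332 CPM at 24 h, where the counts were 10, 26 and 10. None of these groups overlapped with its control. E2F8 changed by -3.15 (SE 0.15, adjusted p = 7.47e-28) in senescence and by -2.45 (SE 0.24, adjusted p = 6.63e-14) with GNF-7 at 24 h, on the log2 scale, and the second value was -3.05 without the second GNF-7 library of 24 h. At 6 h the change was -0.51 (SE 0.19, adjusted p = 0.0278), and it did not pass the threshold in limma voom, in a fit of only the 2 groups compared, or without either of the first 2 vehicle libraries or the first GNF-7 library (adjusted p 0.0557 to 0.12).

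The 3 pocket protein genes differed from each other. RB1 (ENSG00000139687, chr13:48303726-48599436, plus strand), the retinoblastoma gene, was at 131, 146 and 142 CPM in cycling cells, 82.7, 85.5 and 87.7 CPM in senescent cells with vehicle at 6 h, and 87.1, 82.6 and 85.8 CPM at 24 h. GNF-7 gave 85.3, 81.0 and 83.6 CPM at 6 h, overlapping the vehicle libraries, and 64.3, 62.4 and 59.1 CPM at 24 h, below all of them. RB1 fell by 0.71 on the log2 scale (SE 0.04, edgeR adjusted p = 2.09e-22) in senescence and by 0.46 (SE 0.05, adjusted p = 2.41e-13) with GNF-7 at 24 h; the 6 h value was -0.03 (95% interval -0.12 to 0.05). RBL1 (ENSG00000080839, chr20:36996349-37095995, minus strand), which encodes p107, was at 42.4, 43.8 and 41.4 CPM in cycling cells. In senescent cells with vehicle it was at 9.04, 9.54 and 10.8 CPM at 6 h and 9.73, 8.82 and 8.20 CPM at 24 h. With GNF-7 it was at 7.84, 7.20 and 6.94 CPM at 6 h and 6.05, 6.24 and 5.25 CPM at 24 h. RBL1 was lower in each step without overlap, with log2 fold changes of -2.12 (SE 0.09, adjusted p = 5.66e-31) in senescence, -0.42 (SE 0.10, adjusted p = 0.000505) with GNF-7 at 6 h and -0.61 (SE 0.11, adjusted p = 9.53e-07) at 24 h.

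RBL2 (ENSG00000103479, chr16:53433977-53491649, plus strand), which encodes p130, the pocket protein that leads in resting cells, stayed within a 1.27-fold span of group means. It was at 57.3, 59.3 and 60.1 CPM in cycling cells and at 54.0, 56.5 and 52.4 CPM in senescent cells with vehicle at 6 h. At 24 h vehicle gave 54.2, 50.6 and 50.5 CPM. GNF-7 gave 63.4, 58.7 and 59.8 CPM at 6 h and 64.9, 66.4 and 65.4 CPM at 24 h, above its vehicle at both times. RBL2 rose by 0.34 on the log2 scale with GNF-7 at 24 h (SE 0.05, edgeR adjusted p = 2.15e-08) and by 0.16 at 6 h (SE 0.05, adjusted p = 0.00732). The 6 h call was lost without the third vehicle library (adjusted p = 0.052) or the first GNF-7 library (adjusted p = 0.0623). Its senescence value of -0.12 (adjusted p = 0.0321) did not hold in 9 of the alternatives, among them leaving out the second or the third cycling library or the first or the third vehicle library (adjusted p 0.0707 to 0.135), and its sign turned with scaling by total counts (0.02) or a filter at a mean of 5 CPM (0.03). Exons of RBL2 overlap those of AKTIP and AC007342.6 on the other strand over 1331 bases in GENCODE 29, so its counts are uncertain where counting did not use strand; the same holds for FOXM1 with ITFG2 over 781 bases, RBL1 with AL136172.1 over 211 bases and E2F8 with AC009652.2 over 7 bases.

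MYBL2 and FOXM1, the partners of MuvB at G2 and mitosis genes, were lower in senescence and lower again after 24 h of GNF-7. MYBL2 (ENSG00000101057, chr20:43667019-43716496, plus strand) was at 139, 143 and 144 CPM in cycling cells, 13.7, 12.8 and 14.9 CPM in senescent cells with vehicle at 6 h, and 12.0, 13.0 and 11.9 CPM at 24 h. GNF-7 gave 11.4, 10.7 and 11.6 CPM at 6 h and 1.94, 2.50 and 3.09 CPM at 24 h. Cycling cells were at the top, GNF-7 at 24 h at the bottom, and the other senescent groups between them. The log2 fold change of MYBL2 was -3.37 (SE 0.07, edgeR adjusted p = 1.18e-47) in senescence, -0.30 (SE 0.08, adjusted p = 0.00186) with GNF-7 at 6 h and -2.29 (SE 0.11, adjusted p = 5.76e-28) at 24 h. FOXM1 (ENSG00000111206, chr12:2857681-2877155, minus strand) was at 237, 246 and 252 CPM in cycling cells, 65.6, 71.1 and 66.2 CPM in senescent cells with vehicle at 6 h, and 59.1, 66.4 and 59.6 CPM at 24 h. GNF-7 gave 61.0, 63.1 and 63.6 CPM at 6 h and 30.4, 35.0 and 32.4 CPM at 24 h. FOXM1 changed by -1.86 (SE 0.05, adjusted p = 3.44e-42) in senescence and by -0.92 (SE 0.05, adjusted p = 8.33e-24) with GNF-7 at 24 h, on the log2 scale. The 6 h libraries lay below their vehicle, but the value of -0.11 did not pass the threshold (adjusted p = 0.0572); it did without the filter (0.0357) or the first vehicle library (0.0464).

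LIN9 (ENSG00000183814, chr1:226231149-226309869, minus strand), the MuvB core subunit, was also lower in senescence and moved less with GNF-7. It was at 21.4, 24.1 and 25.2 CPM in cycling cells and at 5.73, 6.95 and 8.01 CPM in senescent cells with vehicle at 6 h. With GNF-7 for 6 h it was at 6.39, 6.89 and 6.43 CPM. At 24 h it was at 6.60, 5.82 and 8.24 CPM in vehicle and at 6.28, 5.33 and 5.21 CPM with GNF-7. Each GNF-7 group overlapped its vehicle group. LIN9 fell by 1.78 on the log2 scale in senescence (SE 0.11, edgeR adjusted p = 1.27e-21), and its 6 h value with GNF-7 was -0.07 (95% interval -0.31 to 0.18). At 24 h it was called lower at -0.29 (adjusted p = 0.046) although the groups overlapped, and 8 alternatives, among them limma voom and leaving out the first or the third vehicle library or the second or the third GNF-7 library of 24 h, lost that call (adjusted p up to 0.375); without the third vehicle library the value was -0.15.

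**Figure D2:**
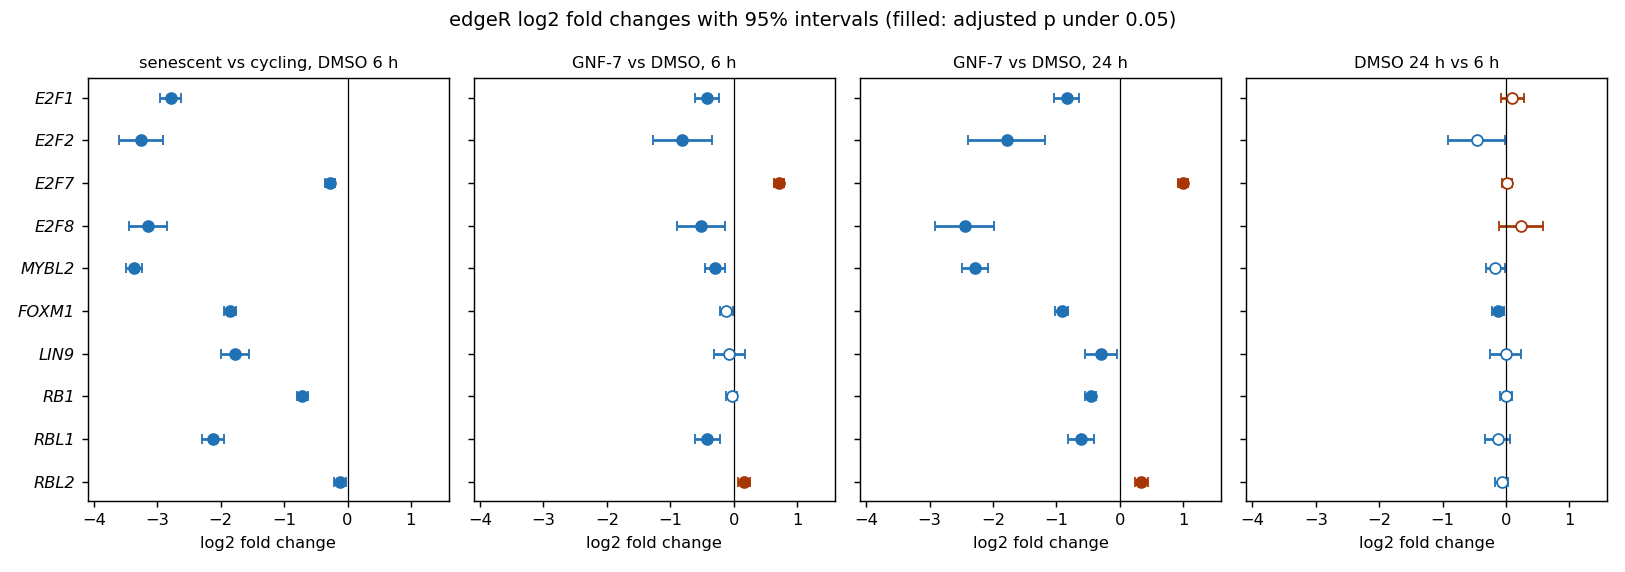
Log2 fold change of each gene from the edgeR fit in 4 comparisons, with 95% intervals; filled points have an adjusted p under 0.05. In senescence all 10 points lie left of 0, with GNF-7 only E2F7 and RBL2 lie right of it, and with vehicle at 24 h against 6 h 9 of 10 are open.

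In senescent against cycling cells, all 10 genes were called lower, a call that 34.4% of the 18563 genes tested received. None was called higher, beside 35.6% of all genes, and 70.0% of all genes were called in either direction. All 10 had senescent libraries wholly below the cycling ones, as 35.4% of all genes did (36.1% lay wholly above). The drop was at least 2-fold for 7 of the 10, against 7.56% of all genes. The median log2 fold change of the 10 was -1.99, beside 0.06 over all genes; by total counts the all-gene median was 0.19. The range was wide, from MYBL2, E2F2, E2F8 and E2F1, at 9.72, 10.4, 11.3 and 14.4% of their cycling level, to RB1, E2F7 and RBL2, at 61.0, 83.0 and 92.2%.

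GNF-7 against vehicle at 6 h gave 5 genes called lower (E2F1, E2F2, E2F8, MYBL2 and RBL1), 2 called higher (E2F7 and RBL2) and 3 not called. Over all genes tested, 21.4% were called lower and 17.9% higher. The median log2 fold change of the 10 was -0.20, beside 0.01 over all genes, and no member fell by 2-fold, which 0.566% of all genes did. The GNF-7 libraries lay wholly below vehicle for 6 genes and wholly above for 2, beside 25.1% and 22.6% of all genes. At 24 h against vehicle at 24 h, 8 genes were called lower and the same 2, E2F7 and RBL2, higher, beside 29.7% and 29.3% of all genes. E2F2, E2F8 and MYBL2 fell by at least 2-fold, which 3.92% of all genes did, and the median of the 10 was -0.72, beside 0.04. Groups did not overlap for 7 lower and 2 higher genes, beside 30.9% and 32.2% of all genes.

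The 2 times were compared directly by the interaction term, the GNF-7 effect at 24 h minus that at 6 h. MYBL2 and E2F8 had the largest differences of the 10, at -1.99 (SE 0.14, edgeR adjusted p = 3.70e-19) and -1.94 (SE 0.32, adjusted p = 1.08e-06) on the log2 scale. FOXM1 and RB1, which were not called at 6 h, differed by -0.81 (adjusted p = 1.28e-14) and -0.43 (adjusted p = 2.12e-07), and E2F1 by -0.42 (adjusted p = 0.0176). E2F7 differed by 0.28 (adjusted p = 8.43e-05). RBL2, at 0.18 (adjusted p = 0.0413), lost its call in 13 alternatives (adjusted p up to 0.129), among them leaving out the first or second vehicle library of 6 h, or the second or the third library of any of the other 3 groups. E2F1 lost its call in 5 (adjusted p up to 0.0865), which were a fit of only the groups compared and leaving out the third GNF-7 library of 6 h, the first vehicle library of 24 h, or the first or the third GNF-7 library of 24 h. In all, 5 genes were called lower and 2 higher, beside 18.0% and 12.8% of all genes. E2F2 (-0.98, adjusted p = 0.0552), LIN9 (-0.22, 95% interval -0.57 to 0.13) and RBL1 (-0.20, 95% interval -0.48 to 0.09) were not called. The E2F2 difference was called by DESeq2 (adjusted p = 0.0380), by scaling without mitochondrial genes, with the replicate block, and without the third vehicle or the third GNF-7 library of 6 h, the first vehicle library of 24 h or the third GNF-7 library of 24 h, the last giving -1.52 (adjusted p = 0.00811).

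In vehicle alone, 24 h against 6 h, 1 of the 10 genes was called, beside 9.29% of all genes called lower and 9.26% higher. This was FOXM1, at -0.13 (edgeR adjusted p = 0.0469), with overlapping groups, and 6 alternatives lost it (adjusted p up to 0.265), which were DESeq2, limma voom and leaving out the second or the third library of 6 h or the first or the third of 24 h. With scaling by total counts the all-gene median was -0.10 in place of 0.01 here and the calls were 627 higher and 4392 lower in place of 1719 and 1724; by that scaling 3 members were called lower. The largest of the other 9 values in size was -0.46, for E2F2, and all 10 genes had overlapping groups, while 16.3% of all genes lay wholly lower and 16.6% wholly higher. Of the lists described next, 14 of 30 G2/M targets fell, among them PLK1 (-0.34), CCNF (-0.45) and TOP2A (-0.23); that count was 22 by total counts and 9 without the second vehicle library of 6 h or the third of 24 h. Of 30 G1/S targets 4 fell, among them MCM4 (-0.24), MCM2 (-0.19) and ORC1 (-0.38), and 2 rose, PCNA (0.15) and TYMS (0.15). ORC1 lost its call in 6 alternatives, which were limma voom, a fit of only the groups compared, and leaving out the first or the third library of either time; without the third of 24 h it was at -0.24 (adjusted p = 0.259). By total counts PCNA (0.04, adjusted p = 0.526) and TYMS (0.04, adjusted p = 0.593) were not called, nor was PCNA without the first library of 24 h (adjusted p = 0.0517). CDKN1A (0.16), CDKN2D (0.40) and CDKN1C (0.70) rose and CDK6 (-0.16) and TFDP2 (-0.13) fell. TFDP2 lost its call without the filter and without any 1 of the 6 libraries except the third of 6 h (adjusted p 0.0559 to 0.176), and CDKN1A did by total counts (0.05, adjusted p = 0.348). CDKN1C lost its call without the first library of 6 h (adjusted p = 0.0535) or the third of 24 h (adjusted p = 0.105), and CDK6 without the third of 24 h (adjusted p = 0.0986).

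Compared per kilobase of exon, the order of the 10 genes differed between cycling and senescent cells. In cycling cells MYBL2 (51.1 ± 0.9 CPM per kb, SD, n = 3) and FOXM1 (49.98 ± 1.54) stood first and overlapped each other. They were followed without overlap by E2F1 (26.7), RB1 (21.7), E2F7 (18.5), RBL2 (8.05) and RBL1 (7.14), then by LIN9 (5.31) and E2F8 (5.06), which overlapped, and by E2F2 (3.24). In each of the 4 senescent groups E2F7 stood first, at 15.3, 25.3, 15.5 and 31.0 CPM per kb in vehicle at 6 h, GNF-7 at 6 h, vehicle at 24 h and GNF-7 at 24 h, above every library of the next gene. With GNF-7 at 24 h it was followed by RB1 (9.60), RBL2 (8.96) and FOXM1 (6.66), and MYBL2 (0.903) stood eighth, with a range that overlapped that of RBL1 (0.981).

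The makeup of each family was taken as its members' shares of the summed CPM per kb in each library. RBL2 made up 22.2, 21.2 and 22.1% of the RB family in cycling cells, 34.0, 34.2 and 31.7% in senescent cells with vehicle at 6 h, and 44.7, 45.9 and 47.1% with GNF-7 at 24 h, where vehicle gave 32.9, 32.6 and 31.9%. RBL1 went the other way, from a mean of 19.4% in cycling cells to 7.38% in senescence and 5.02% with GNF-7 at 24 h. RB1 held 58.8% in cycling cells and 59.3% in senescence and was at 49.1% with GNF-7 at 24 h. The repressors E2F7 and E2F8 together made up 20.4% of the transcripts of E2F1 to E2F8 in cycling cells and 23.9% in senescence. With GNF-7 they made up 36.8% at 6 h and 43.3% at 24 h, beside 25.0% in vehicle at 24 h, and nearly all of this was E2F7. In an exact two-sided permutation test of 3 against 3 libraries the smallest p is 0.1, and 11 of the 16 shares tested reached it, each with groups that did not overlap (p = 0.1455 after Benjamini-Hochberg adjustment over the 16). At this number of libraries the shares cannot pass a threshold of 0.05.

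**Figure D3:**
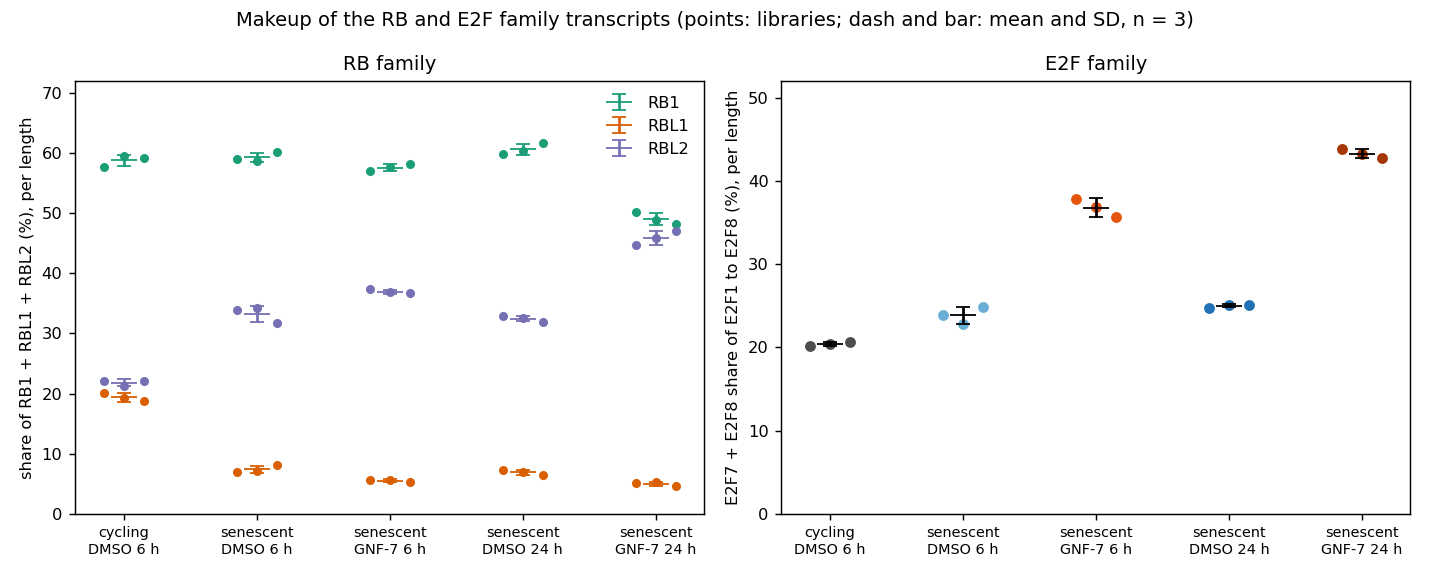
Left, share of RB1, RBL1 and RBL2 in the summed CPM per kb of the 3 genes, in percent; right, share of E2F7 plus E2F8 in that of E2F1 to E2F8. Points are libraries, dashes and bars the mean and SD of 3; the RBL2 share goes from 21.8% in cycling cells to 45.9% with GNF-7 at 24 h, and the E2F7 plus E2F8 share from 20.4 to 43.3%.

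The genes that act on the same step were read from lists, whose counts stand beside shares of all genes of 34.4% called lower and 35.6% higher in senescence, 21.4% and 17.9% with GNF-7 at 6 h, and 29.7% and 29.3% at 24 h. Of 7 other E2F and DP genes, 6 were tested, since TFDP3 had 0 counts in every library. In senescence 4 fell and none rose, led by the DP partner TFDP1, from 328 ± 9 to 118 ± 3 CPM (log2 fold change -1.47, edgeR adjusted p = 1.02e-41), with E2F4 at -0.44 and the activator E2F3 at -0.37; with the 5 CPM filter these 2 were at -0.29 and -0.22. With GNF-7 at 24 h TFDP1 (-0.43) and E2F3 (-0.51) were among 3 that fell, and 2 rose. One of these was E2F5, a pocket-protein-bound repressor, at 3.57, 5.36 and 4.02 CPM in vehicle and 10.3, 9.03 and 8.67 CPM with GNF-7 (log2 fold change 1.11, adjusted p = 4.57e-09); the other was TFDP2 (0.17, and 0.27 with the 5 CPM filter). At 6 h 3 of the 6 fell, among them E2F3 (-0.31) and E2F4 (-0.19), and TFDP2 rose (0.22). The GNF-7 effect at 24 h minus that at 6 h was 0.88 for E2F5 and -0.26 for TFDP1, both called. The list's medians were -0.35, -0.10 and -0.07 in the 3 comparisons, beside 0.06, 0.01 and 0.04 over all genes. Exons of some list genes also overlap other genes. Among these, overlap on the other strand covers 1102 bases of E2F5, 1369 of CDK4 and 1633 of CCNE2. Their counts are uncertain where counting did not use strand. RRM2 overlaps another gene on the same strand over 1077 bases.

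The other MuvB and MYB genes fell with LIN9 in senescence, 5 of 6, and 1 rose. The MuvB subunits LIN54 (-1.05) and LIN52 (-1.06) and the chaperone RBBP4 (-0.74) fell, while LIN37, whose exons overlap another gene on the same strand, rose (0.93). MYBL1, the A-MYB gene, had the largest response to GNF-7 in this list apart from MYB, whose counts were few. It was at 58.2, 58.2 and 58.3 CPM in vehicle at 24 h and at 9.59, 9.74 and 8.43 CPM with GNF-7 (log2 fold change -2.65, edgeR adjusted p = 7.51e-42), and at 6 h its change was -0.45 (adjusted p = 6.36e-10). MYB itself had 0 to 11 counts in senescent libraries and 39 to 44 in cycling ones. With GNF-7, 3 of 6 fell and LIN54 rose (0.30) at 6 h, and 2 fell, MYBL1 and MYB, and LIN37 rose (0.41) at 24 h. LIN54 lost its call without the first GNF-7 library of 6 h (adjusted p = 0.0568), and LIN37 without the third vehicle or the second GNF-7 library of 24 h (adjusted p 0.0618 and 0.0533). MYB lost its 6 h call without the first vehicle library or either of the first 2 GNF-7 libraries (adjusted p up to 0.0966), and its 24 h call without the first vehicle library (adjusted p = 0.0598). The list's medians were -0.89, -0.15 and 0.01, and the GNF-7 effect at 24 h minus that at 6 h was -2.21 for MYBL1 (adjusted p = 7.30e-30) and 0.61 for LIN37, both called; the LIN37 call was lost without the second vehicle or the first GNF-7 library of 6 h (adjusted p 0.0625 and 0.0690).

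The next list held 16 genes, the cyclins, kinases and inhibitors that set RB phosphorylation and the kinase gene DYRK1A. Of these, 14 were tested, CDKN2A and its neighbour CDKN2B having 0 counts throughout. In senescence 9 fell and 3 rose. The inhibitor gene CDKN1A, which encodes p21, went from 186 ± 2 to 501 ± 9 CPM (log2 fold change 1.43, edgeR adjusted p = 1.14e-42), and the G1/S kinase CDK2 (-1.57) and its cyclin CCNE2 (-3.18) fell. CDKN1C (1.03) and the cyclin D1 gene CCND1 (0.11, and 0.24 by total counts) rose. With GNF-7 at 24 h 8 fell and 3 rose. CCND1 went from 886 ± 2 to 445 ± 13 CPM (log2 fold change -0.99, adjusted p = 2.38e-35), and its kinase CDK6 (-1.14) and the inhibitor CDKN2C, which encodes p18 (-2.23), fell as well, while CDK4 (0.13, and 0.23 with the 5 CPM filter) and CDKN1C (0.55) rose. CDKN1C lost its call without the first vehicle library (0.43, adjusted p = 0.101) or the second GNF-7 library (0.38, adjusted p = 0.151) of 24 h. The third that rose was CCND2, whose exons overlap another gene on the same strand and which had 1 to 5 counts in the senescent vehicle libraries, 8 to 19 with GNF-7 at 6 h and 29 to 35 at 24 h, so no fold is given. At 6 h 8 fell and 2 rose, with CCND1 at -0.47, CDK6 at -0.43, CDKN2C at -0.71 and CDK4 at 0.18; CCND2 was the other gene that rose, a call lost without the third vehicle or the third GNF-7 library (adjusted p 0.0995 and 0.141). The medians were -0.64, -0.31 and -0.38. The interaction term was negative and called for 8 genes, beside 18.0% of all genes. The smallest p were those of CDKN2C (-1.52), CCND1 (-0.52) and CDK6 (-0.72). It was positive and called for CCNE1 (0.47), a cyclin of CDK2, beside 12.8% of all genes. The CCNE1 call was lost without the second vehicle library of 6 h, or the first vehicle or the first GNF-7 library of 24 h (adjusted p 0.0504 to 0.0963).

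The target genes were read from 30 E2F targets of G1/S and 30 targets of MYBL2-MuvB and FOXM1 at G2 and mitosis, and every gene of both lists fell by at least 2-fold in senescence. Medians were -2.40 for the G1/S list and -1.63 for the G2/M list. RRM2, a ribonucleotide reductase subunit, went from 343 ± 4 to 46.1 ± 1.1 CPM, and MCM2 (-2.61) and MCM4 (-2.42), of the replicative helicase, and POLE2 (-3.32), of DNA polymerase epsilon, fell with it. In the G2/M list the mitotic ubiquitin-conjugating enzyme UBE2C (-2.92), the kinase CDK1 (-2.70) and topoisomerase TOP2A (-2.35) had the smallest p. With GNF-7 at 6 h 19 of 30 G1/S and 21 of 30 G2/M genes fell, with medians of -0.23 and -0.22. MCM6 rose (0.49, edgeR adjusted p = 7.58e-09), as did MCM7 (0.14), while UHRF1 (-1.07), CDC25A (-0.99) and CLSPN (-0.90) fell with the smallest p; in the G2/M list UBE2C (-0.56), BUB1B (-0.39) and AURKA (-0.37) had the smallest p. At 24 h 29 and 28 of 30 fell, 15 and 18 of them by at least 2-fold, beside 3.92% of all genes. Some of the 18 lay just past that cut, among them CENPF (-1.01), CDC20 (-1.04) and TPX2 (-1.06). The 2-fold counts at 24 h were likewise not taken under the alternatives. The medians were -1.01 and -1.04. RRM2 was at 47.2, 41.3 and 41.4 CPM in vehicle and at 7.82, 7.70 and 8.60 CPM with GNF-7 (-2.43, adjusted p = 5.70e-41), and DTL (-2.64), UHRF1 (-2.23), CDK1 (-1.88), TOP2A (-1.42), ECT2 (-1.22) and BIRC5 (-1.19) fell. The 24 h effect was lower than the 6 h effect by the interaction term for 28 G1/S and 26 G2/M genes, beside 18.0% of all genes.

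**Figure D4:**
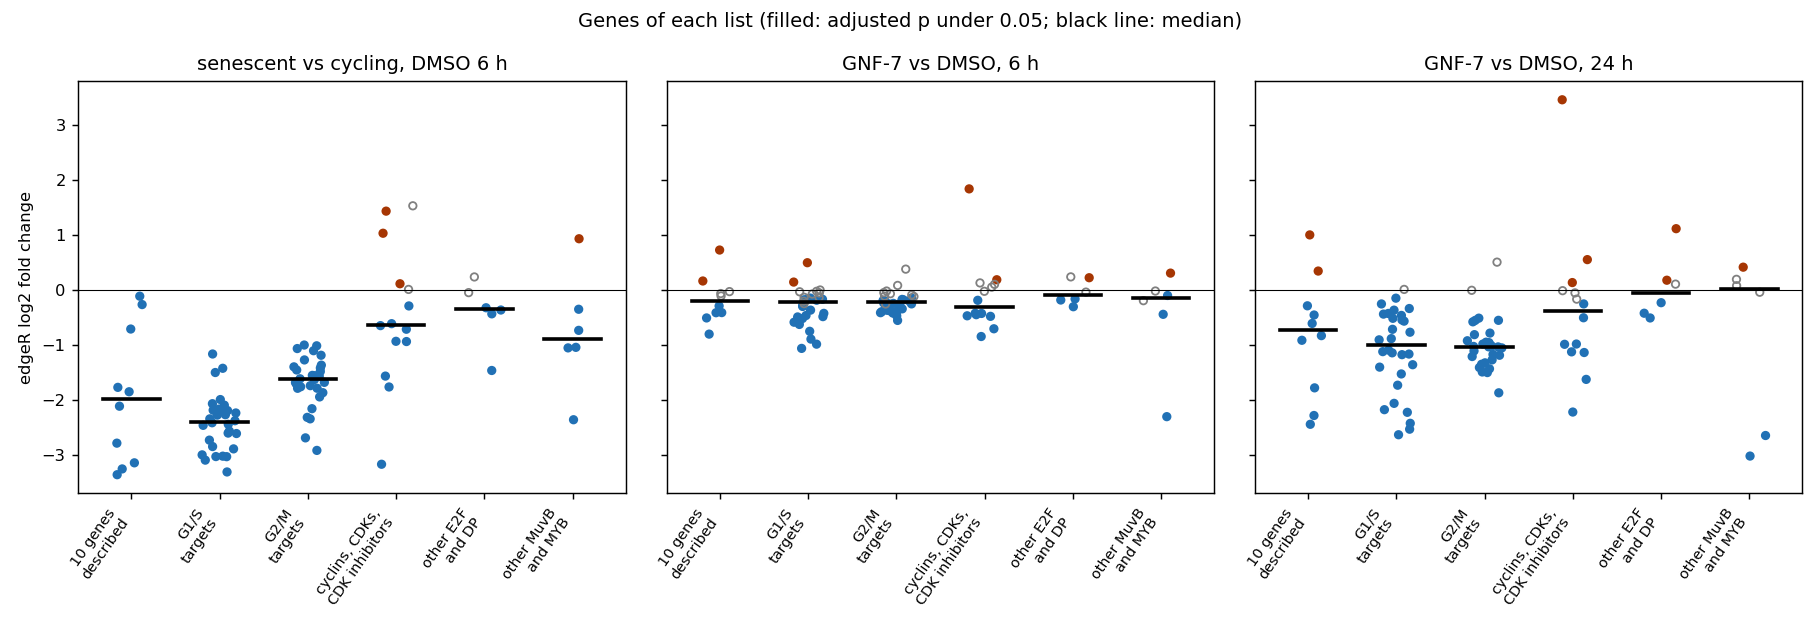
The edgeR log2 fold change of each tested gene by list in 3 comparisons; filled points have an adjusted p under 0.05 and black lines are medians. In senescence both target lists lie wholly below 0, and with GNF-7 at 24 h their medians are -1.01 and -1.04.

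The letters in the windows around the starts of the targets were counted as for the 10 genes. At least 1 of the 4 E2F forms stood in the windows of 15 of the 25 G1/S genes with a window (60%). The same held for 3 of 26 G2/M genes (11.5%), beside 3.99% of 27305 genes. TTTGAA or TTCGAA, 2 forms of the CHR element that MuvB binds, stood in 18 of 26 G2/M genes (69.2%) and in 2 of 25 G1/S genes (8%), beside 19.5% of all genes. Of the 10 genes, 8 had a window, and CHR letters stood in windows of 2 of these (25%), LIN9 and RBL2, near the share of all genes. The RBL2 match lay after the start, at 25. Both target lists were drawn from known targets of these factors, so high shares were likely beforehand and are not a result of these data. The letters are not shown to be binding sites, and their relation to the changes in level was not tested.

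Likeness to each member was measured as Pearson r of log2 CPM (prior count 2) over the 15 libraries, 3 in each of 5 groups, among 11208 other genes with a mean of at least 5 CPM. The most like genes were WARS1 (0.994) and ASB1 (0.991) for E2F7, CRYBG1 and MCM5 for E2F1, CENPO and RNF169 for E2F2, ESCO2 and TUBA3C for E2F8, and PBK and SNRPA1 for MYBL2. For FOXM1 they were ZWILCH and NCAPG2, for RB1 CKAP2L and AURKB, for RBL1 RBMX and SKP2, and for LIN9 NUP37 and TIPIN. All of these r lay between 0.986 and 0.997. Matches are named only for genes whose group means spanned at least 2-fold, which leaves out RBL2; its 2 highest r, 0.943 and 0.942, lay below that range.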

How the data were processed

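RNA from HT-1080 cells was sequenced with a stranded mRNA kit, per the labels' protocols. Reads were processed with bcl2fastq 2.20.0.422, STAR 2.7.9a and featureCounts 1.5.1 on GRCh38, per the submitters' processing notes; the annotation release and the strand setting are not given in the sources used here. The authors deposited 1 table of raw counts per gene and library. The table has 60673 rows; 3 of them hold pieces of a single split gene record and were not used. Libraries were grouped from their titles and time labels, and the table's columns were matched by library name. No 2 libraries of a group agreed within sampling noise in a chi-square test.

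Counts were tested with edgeR 4.0.16 (R 4.3.3; robust quasi-likelihood, filterByExpr, TMM) in 1 fit of all 15 libraries, with Benjamini-Hochberg adjustment over 18563 genes and calls at an adjusted p under 0.05. The script was tested on simulated data. CPM and CPM per kb (union of GENCODE 29 exons) were computed from the counts. Intervals of fold changes are 95%, and the limit for 0 counts is 3 counts, which covers counting error only because reads have no molecular identifiers. Alternatives were RLE scaling, total counts, scaling without mitochondrial genes, no filter, a minimum mean level of 5 CPM, DESeq2 1.42.0, limma voom 3.58.1, only the groups compared, a replicate block and leaving out each library; for shares, counts without length.

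The members and gene lists were chosen with earlier results of these data known. Named genes are the 10 members, and from each list the 3 with the smallest p, the 1 with the largest change and those called against the direction of most of the list, in each comparison. List genes are given for the comparisons shown, and a few more are named only to state a limit or the content of a list. Promoter windows are from RefSeq (GRCh38.p14).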

Additional observations from a re-analysis of the deposited data

Results flagged for a closer look

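For 7 of the 10 genes the effect of GNF-7 at 24 h differed from that at 6 h by the test of the difference itself (edgeR interaction term). Over all genes tested, 18.0% were called lower and 12.8% higher by this term. The log2 effect at 24 h minus that at 6 h was -1.99 for MYBL2, -1.94 for E2F8, -0.81 for FOXM1, -0.43 for RB1 and -0.42 for E2F1, all toward lower levels at 24 h. It was 0.28 for E2F7 and 0.18 for RBL2, toward higher levels. The share of mitochondrial counts was 15.1 to 18.7% in vehicle and 22.6 to 24.1% with GNF-7 at 24 h, beside 11.2 to 12.4% and 13.2 to 15.3% at 6 h. With scaling that leaves out those genes the RBL2 difference was 0.165 (adjusted p = 0.0667), and the other 6 kept their calls. Across all alternatives RBL2 lost its call in 13 and E2F1 in 5.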

How the results depend on the processing

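Of 805 values of the 10 genes under alternative settings, 732 kept direction and call, 47 lost the call, 12 gained it and 14 changed sign; the cause was not tested. Among changes of sign, RBL2 in senescence was 0.0154 by total counts and 0.0335 with the 5 CPM filter, RB1 with GNF-7 at 6 h was 0.0187 with that filter, and LIN9 there ran from -0.186 to 0.0491 when leaving out 1 library. For vehicle at 24 h against 6 h, total counts gave E2F1 -0.0119, E2F7 -0.0927, TFDP1 -0.0324 and MYBL1 -0.0612, and the 5 CPM filter gave RB1 0.0039 and LIN9 0.00077. In the same comparison, leaving out 1 library gave RB1 -0.0232 to 0.0200, LIN9 -0.147 to 0.113, E2F5 -0.348 to 0.0286 and MYB -0.925 to 0.0475. Among the shares, the RB1 share in senescence was -0.85 percentage points without length and -0.0098 to 0.877 when leaving out 1 library, lowest without the first cycling one. Without length the RBL1 share in senescence changed by -11.1 points and the E2F7 plus E2F8 share by 14.997 and 20.2 points with GNF-7 at 6 h and 24 h.

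The number of members with a higher effect at 24 h than at 6 h was 1 instead of 2 by RLE scaling, scaling without mitochondrial genes, no filter, DESeq2 and only the groups compared, and 1 to 2 when leaving out 1 library. The number higher with GNF-7 at 6 h was 1 to 2 when leaving out 1 library. For vehicle at 24 h against 6 h, members called lower were 3 by total counts, 0 by DESeq2 and by limma voom, and 0 to 1 when leaving out 1 library, and G2/M targets called lower were 14, 22 by total counts and 9 to 17 when leaving out 1 library.

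Of 30 pairs of same-numbered libraries, 0 had a correlation over 0.1 (range -0.037 to 0.058). Their own number was the best match, on average, for 8 of 15 libraries. With the replicate block 7481 genes were called with GNF-7 at 6 h, beside 7286 without it. For vehicle at 24 h against 6 h the numbers were 3711 and 3443. The labels do not say whether a number marks a shared culture. A fit with the replicate block called FOXM1 lower with GNF-7 at 6 h (-0.11, adjusted p = 0.036), where 6 members instead of 5 were then lower, and called the E2F2 interaction (-0.97, adjusted p = 0.0473). Depth limits E2F2 and E2F8 with GNF-7 at 24 h, at 7 to 26 counts a library.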
